A study of Mus musculus with 8 samples.

Results

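Chromatin accessibility in aged hematopoietic stem cells (HSCs) was examined at 4 long mouse genes whose products are known from neurons or from motile cilia: Cntn1, Nova1, Rbfox3 and Dnah9. Members were all peaks of the deposited count table lying fully inside 1 mm9 window per gene. The windows were 91.85 to 92.19 Mb of chromosome 15 for Cntn1, 47.78 to 47.95 Mb of chromosome 12 for Nova1, 118.34 to 118.79 Mb of chromosome 11 for Rbfox3 and 65.63 to 66.0 Mb of chromosome 11 for Dnah9. They held 46 of the 126871 deposited peaks: 8 at Cntn1, 2 at Nova1, 30 at Rbfox3 and 6 at Dnah9. The genes were picked because earlier results of the same old against young comparison showed opened peaks there, so the values below describe that comparison at the members and test nothing.

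The series has 4 libraries of old HSCs and 4 of young HSCs, profiled by bulk ATAC-seq, in which a transposase cuts accessible DNA and the read count over a peak follows its openness. Both groups were C57BL/6 mice, and cells were sorted from bone marrow as LSK CD150+ CD48-, that is lineage-negative cells carrying Sca-1 and Kit, with CD150 and without CD48. Ages, sex and treatments are not given in the labels, which also do not say whether libraries came from separate mice, so the spread between them, and the SEs and p-values built on it, may be technical. Anything else in which the 2 sets of libraries differ cannot be told apart from age. Totals were 4200905 to 5129684 counts per library, so 1 count was worth 0.207 to 0.255 CPM (the count scaled to a common library size). Old replicate 4 lay between the groups: at the 7352 peaks called higher in old it took a place of 0.72, where the young mean is 0, the old mean is 1 and each library is left out of its own group's mean. Old replicates 1 to 3, placed in the same way, sat at 1.03 to 1.15. In bulk samples, more cells with an open site and a more open site per cell cannot be told apart. Markers of HSCs and of other cells that the sort could hold were not analysed here, because no mm9 annotation was used.

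Neurons and multiciliated cells switch on gene programmes that are normally silent in blood cells, and genes of this kind usually sit in closed chromatin outside their own lineage. Cntn1 encodes contactin-1, a lipid-anchored adhesion protein of the immunoglobulin superfamily on axons. Nova1 and Rbfox3 encode RNA-binding regulators of neuronal splicing, and the Rbfox3 protein is NeuN, the usual marker of mature neurons. Dnah9 encodes a dynein heavy chain of the outer arms of motile cilia. Accessibility is not expression, and RNA was not measured in these libraries.

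The letters around the annotated starts are shown because the old-open peaks at 3 of the genes lay at the start-site end of the window. They come from RefSeq on GRCm38.p6, matched by gene symbol for all 4 genes, and run from 250 bases before to 50 after the annotated start. Their build differs from the mm9 of the peaks, so they were not laid over the peaks. Capitals mark CpG dinucleotides, the sites of DNA methylation in mammals. RefSeq lists 3 starts for Cntn1, of which the one farthest upstream is printed.
Cntn1 promoter, GRCm38.p6 chr15:92050915-92051214, + strand: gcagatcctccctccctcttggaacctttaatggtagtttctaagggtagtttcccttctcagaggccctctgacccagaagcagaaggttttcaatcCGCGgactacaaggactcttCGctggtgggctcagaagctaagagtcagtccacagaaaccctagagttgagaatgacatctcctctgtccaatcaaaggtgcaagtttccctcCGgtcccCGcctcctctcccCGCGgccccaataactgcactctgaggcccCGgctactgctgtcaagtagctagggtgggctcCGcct
Nova1 promoter, GRCm38.p6 chr12:46818718-46819017, - strand: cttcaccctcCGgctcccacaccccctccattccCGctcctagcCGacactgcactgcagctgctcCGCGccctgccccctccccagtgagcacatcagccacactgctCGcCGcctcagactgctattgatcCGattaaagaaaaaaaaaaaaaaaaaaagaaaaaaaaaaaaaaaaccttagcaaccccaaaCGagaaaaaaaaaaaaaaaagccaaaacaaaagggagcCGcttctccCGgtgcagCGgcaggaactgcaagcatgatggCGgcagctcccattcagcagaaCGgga
Rbfox3 promoter, GRCm38.p6 chr11:118760992-118761291, - strand: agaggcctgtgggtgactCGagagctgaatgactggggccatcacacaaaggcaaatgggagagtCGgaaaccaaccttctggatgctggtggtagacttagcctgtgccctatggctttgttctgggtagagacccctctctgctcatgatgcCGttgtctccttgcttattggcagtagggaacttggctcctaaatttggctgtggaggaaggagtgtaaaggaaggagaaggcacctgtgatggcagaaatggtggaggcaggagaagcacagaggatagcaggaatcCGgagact
Dnah9 promoter, GRCm38.p6 chr11:66168502-66168801, - strand: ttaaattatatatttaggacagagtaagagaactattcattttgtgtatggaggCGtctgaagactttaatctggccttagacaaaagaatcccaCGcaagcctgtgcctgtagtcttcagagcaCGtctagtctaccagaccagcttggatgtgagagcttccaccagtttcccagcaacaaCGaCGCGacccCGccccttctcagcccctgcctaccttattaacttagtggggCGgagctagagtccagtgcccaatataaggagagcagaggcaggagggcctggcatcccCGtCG

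The 4 promoters differ in CpG content. Nova1 had 14 CpGs in 300 bases, Dnah9 10, Cntn1 9 and Rbfox3 4, where the median of 32841 RefSeq promoters of the same length was 7. The ratio of observed to expected CpG was 0.764 at Nova1, 0.520 at Dnah9, 0.402 at Cntn1 and 0.205 at Rbfox3, with a median of 0.384 over all promoters. Nova1 therefore had the most CpG and the annotated Rbfox3 promoter the least. In young cells the start-site peak of Nova1 was the most accessible, with a mean of 10.9 CPM. The least accessible was that of Cntn1, at 0.411 CPM, against 1.29 at Rbfox3 and 1.44 at Dnah9. A relation between CpG content and accessibility was not tested. The single RefSeq promoter listed for Rbfox3 lies inside the annotated gene rather than at its upstream end.

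Short motifs were searched on both strands as exact letters, where N is any base. GGACAG, a part of the site of REST (a repressor of neuronal genes outside neurons), was found in the Cntn1 and Dnah9 promoters, and in 22.2% of all promoters. CAGCACC, the other part of that site, was found in none of the 4 and in 7.14% of all. GTTGCC and GTTACC, parts of the site of RFX factors (activators of ciliary genes), were found in none of the 4 and in 12.5% and 7.22% of all promoters. Among letters of blood factors, GAGGAAG (ETS family) was found at Rbfox3 and in 13.6% of all promoters. TGTGGT, for RUNX factors, was found in none of the 4 and in 16.8% of all. AGATAA, for GATA factors, was likewise absent from these windows and present in 11.2% of all. The AP-1 motif TGANTCA was found in none of the 4 and in 7.81% of all promoters. These matches describe letters only. Looser forms of the sites were not searched, so a missing match does not show that a promoter, that of Dnah9 included, lacks a site.

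The 2 groups were compared over all peaks with edgeR's quasi-likelihood test, and calls were made where the p adjusted by Benjamini-Hochberg was below 0.05. Of the 46 members, 22 passed the filter on low counts. Of these, 10 were called higher and 1 lower in old HSCs, where over all 73164 tested peaks 10.0% were called higher and 10.4% lower, or 20.5% in either direction. At the same 10 members all 4 old libraries lay above all 4 young ones, as they did at 10.5% of all tested peaks. The genes were chosen from this contrast, so nothing is read from these counts. Of the 22 tested members, 7 had fewer than 10 counts in every young library and thus passed the filter through their old libraries. These were all 5 tested Cntn1 peaks, 1 at Rbfox3 and 1 at Dnah9. The median log2 fold change, old minus young, was 0.83 over the tested members and 0.01 over all tested peaks.

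The start-site end was taken as the 50000 bases of each window at the gene's 5′ side, by the strand that RefSeq gives (plus for Cntn1, minus for the others), and the rest as gene body. The strongest peak of that end was called the start-site peak. Cntn1, Nova1 and Dnah9 each had 1 peak there, and it rose in old HSCs at all 3 genes. Rbfox3 had 2 weak peaks there, of which 1 was tested. It was not called by edgeR, DESeq2 or limma voom, though its unadjusted edgeR p was below 0.05. In the gene bodies 18 of 41 members were tested. Of these, 7 were called higher, all at Cntn1 and Rbfox3, and 1 lower, at Rbfox3.

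**Figure D1:**
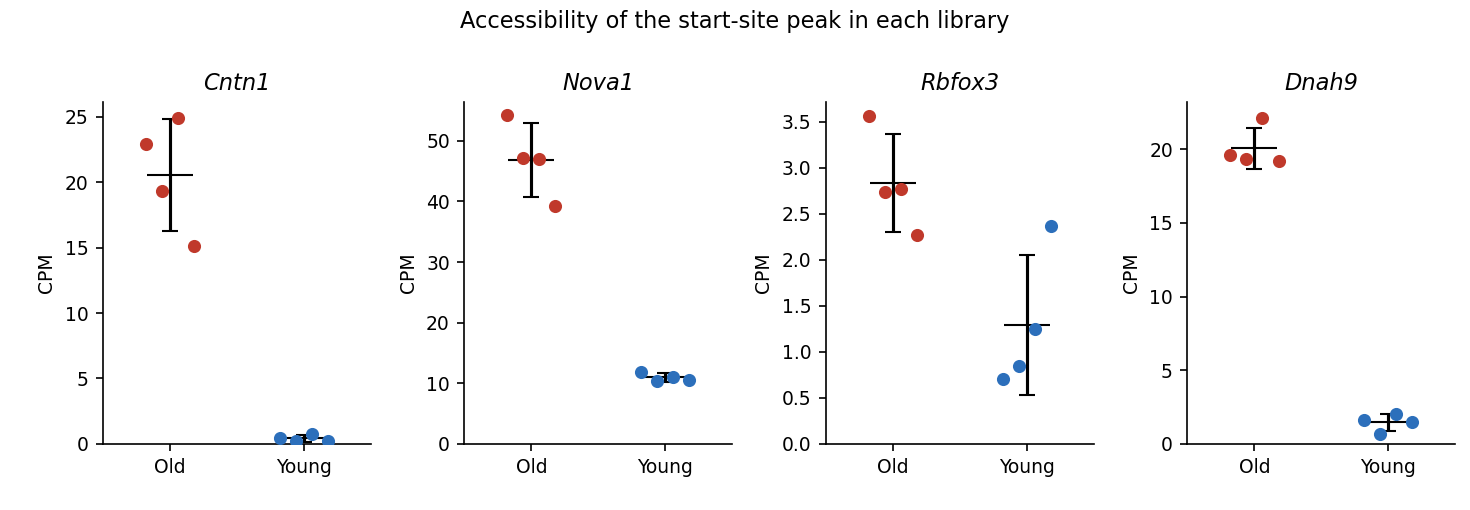
CPM of the start-site peak of each gene in the 4 old and 4 young libraries (points), with the mean and SD (bars, n = 4); each panel has its own scale from 0. Old and young libraries do not overlap at Cntn1, Nova1 and Dnah9, and overlap at Rbfox3, where the highest young library had 2.37 CPM and the lowest old one 2.27.

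The Cntn1 start-site peak, chr15:91881356-91882503, was close to closed in young HSCs and open in every old library. It had 22.9, 19.4, 24.9 and 15.1 CPM in old replicates 1 to 4, against 0.466, 0.210, 0.750 and 0.215 CPM in young replicates 1 to 4. The groups did not overlap, and the highest young library had 3 counts. The log2 fold change was 5.59 ± 0.32 (SE), from 363 old and 7 young counts, which placed 23rd by fold among all tested peaks. In young libraries its mean lay at the 0.152 percentile of tested peaks and in old ones at the 80.6 percentile.

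Cntn1 also opened downstream of that peak. In its gene body 4 of 7 members were tested, and all 4 rose in old HSCs. These 4 lay 61.4 to 95.5 kb downstream of the start-site peak. Like that peak, they had fewer than 10 counts in every young library and passed the filter through their old libraries. A tested peak of that kind could hardly be other than higher in old, so nothing is read from the count. The nearest, chr15:91943159-91943562, had 5.86, 5.26, 11.1 and 2.69 CPM in the old libraries, against 0.250 CPM in young replicate 3 and 0 in the other young libraries. The old libraries together held 109 counts and the young ones 1, a ratio of 108 with a 95% exact binomial interval of 19.0 to 4302, which, like the intervals for the peaks below, covers counting error only.

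The peak at chr15:91945612-91946005 had 6.11, 5.26, 9.92 and 8.27 CPM in the old libraries, against 0, 0, 0.750 and 0.215 in the young ones. Its log2 fold change was 4.86 ± 0.51 (SE). The 2 peaks are neighbours, and old replicate 3 was the highest library at both. At chr15:91964635-91965171 the old libraries had 4.07, 6.52, 3.69 and 4.34 CPM, against 0, 1.05, 1.0 and 1.29 in the young libraries, a log2 fold change of 2.43 ± 0.43. At chr15:91977179-91977719 they had 6.11, 2.95, 5.77 and 9.30 CPM, against 0, 0.210, 0.250 and 1.29, a log2 fold change of 3.66 ± 0.55.

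No old library overlapped the young ones at any of the 5 tested Cntn1 peaks, and young replicate 1 had no count at the 4 in the gene body. The lack of overlap follows largely from how these 5 peaks passed the filter. The order of the old libraries differed between peaks: old replicate 4 was the lowest at chr15:91943159-91943562 and the highest at chr15:91977179-91977719. The 3 members farther downstream, at 180 to 293 kb, were too low to test. They averaged 0.699 to 1.0 CPM in old HSCs and 0.335 to 1.21 CPM in young HSCs. Accessible sites called higher in old thus lay in the upstream part of the Cntn1 window.

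Over the whole table, 153 tested peaks had a mean under 1 CPM in young and of 5 CPM or more in old libraries, and 4 of these were Cntn1 peaks. In windows of 340 kb, the length of the Cntn1 window, started at each of the 153 peaks, 4 was the highest number found. It was reached in 1 window, that of Cntn1. Of the 153 peaks, 128 had no other of them within 340 kb on either side. This count was made after the Cntn1 values were seen and describes where the gene lies among the opened peaks.

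Nova1 changed at its start-site peak, chr12:47919316-47921076, which was already open in young cells. It had 54.2, 47.1, 47.1 and 39.3 CPM in the old libraries, against 11.9, 10.3, 11 and 10.6 CPM in the young ones. The lowest old library was more than 3 times the highest young one, and the young libraries differed little among themselves. The log2 fold change was 2.10 ± 0.12 (SE), the most precise of the 4 genes, from 831 old and 193 young counts. It spans 1761 bases, and 98.3% of tested peaks were as wide or narrower. Its young mean lay at the 66.4 percentile.

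The other Nova1 peak, chr12:47783560-47783929, lay 136 kb downstream and did not pass the count filter. It is given after its values were seen. Without the filter it was called higher in old, as it was with old replicate 4 or any 1 young replicate left out. With a library left out the filter asked for counts in fewer libraries, and this peak then passed through its old ones. These calls therefore add no separate support. It had 2.55, 3.58, 2.54 and 1.65 CPM in the old libraries, and among the young ones 0.421 CPM in replicate 2 and 0 in the rest. The ratio of the summed counts, 46 in old and 2 in young, was 22.8 (95% exact binomial interval 5.96 to 194). Both Nova1 peaks therefore had all old libraries above all young ones. The start-site peak held 94.8% of the summed CPM of the window in old and 99% in young libraries.

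Dnah9 rose at its start-site peak and at no other tested peak of the window. At chr11:65981256-65982269 the old libraries had 19.6, 19.4, 22.1 and 19.2 CPM, against 1.63, 0.631, 2.0 and 1.51 CPM in the young ones. The old libraries lay close together, replicate 4 included, and far above every young library. The log2 fold change was 3.80 ± 0.24 (SE), from 358 old and 25 young counts. It stood nearly alone, with 1 other deposited peak within 250000 bases, against a median of 46 over tested peaks.

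In the Dnah9 gene body, 240 to 348 kb downstream, 0 of 3 tested peaks were called by edgeR, by DESeq2 or by limma voom, and 0 had an unadjusted p below 0.05. Its strongest peak, chr11:65722204-65723165, had 10.7, 7.57, 8.76 and 16.7 CPM in the old libraries, against 19.1, 7.58, 8.25 and 10.1 CPM in the young ones. One library of each group, old replicate 4 and young replicate 1, was high, and the groups overlapped. The log2 fold change was -0.03 ± 0.32 (SE). The other 2 tested peaks had log2 fold changes of 0.10 ± 0.23 at chr11:65634343-65634848 and 0.24 ± 0.30 at chr11:65665602-65665947. The 2 untested peaks averaged under 1.5 CPM in both groups.

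**Figure D2:**
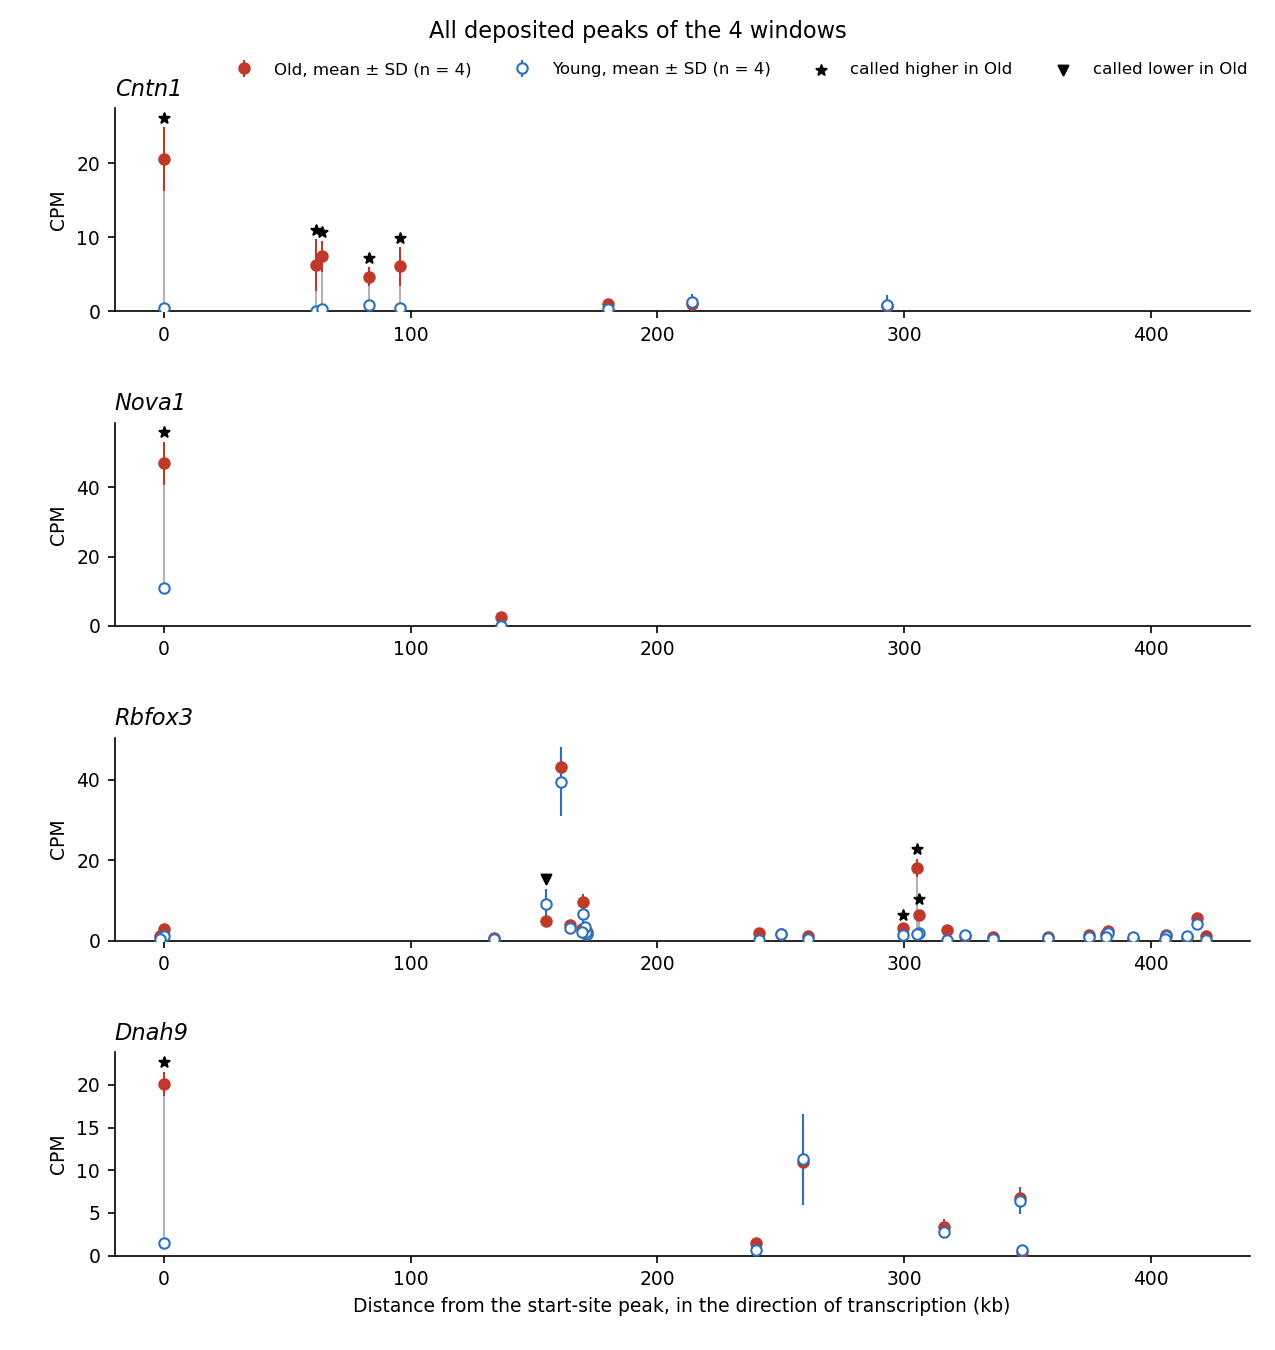
Mean CPM ± SD (n = 4) of all 46 members in old (filled) and young (open) libraries, against the distance in kb from the start-site peak in the direction of transcription; each gene has its own CPM scale. Stars mark peaks called higher and the triangle the one called lower in old HSCs. Called peaks lie at the start-site end at Nova1 and Dnah9, up to 95.5 kb downstream at Cntn1, and in the gene body at Rbfox3.

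At Rbfox3 the called gains lay in the gene body. Its start-site peak, chr11:118770619-118771334, was weak, with 3.56, 2.73, 2.77 and 2.27 CPM in the old libraries, against 0.700, 0.842, 1.25 and 2.37 CPM in the young ones. Young replicate 4 lay within the old range. The log2 fold change was 1.1 ± 0.40 (SE), and the peak was the member nearest to the call threshold among those not called. It was called when young replicate 4 was left out (log2 fold change 1.58) and when old replicate 4 was left out (1.20). The second peak of that end averaged 1.08 CPM in old HSCs and 0.328 CPM in young HSCs and was not tested.

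The called gains at Rbfox3 were 3 peaks within 7262 bases, 300 to 306 kb downstream of the start-site peak. The strongest, chr11:118465409-118465921, had 21.1, 18.1, 16.6 and 16.3 CPM in the old libraries, against 0.466, 3.37, 2.0 and 0.646 CPM in the young ones. All old libraries were several times the highest young one. Its log2 fold change was 3.44 ± 0.32 (SE), which placed 135th by fold among tested peaks.

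A peak 330 bases away, chr11:118464469-118465078, had 7.89, 4.84, 6.23 and 6.82 CPM in the old libraries, against 1.40, 1.89, 1.5 and 3.02 CPM in the young ones, a log2 fold change of 1.69 ± 0.30. The third, chr11:118471153-118471730, had 3.56, 2.52, 2.54 and 3.93 CPM in the old libraries, against 1.87, 1.26, 0.750 and 1.29 CPM in the young ones, a log2 fold change of 1.25 ± 0.37. The groups did not overlap at any of the 3. At the third, every young library was under the filter's count limit, so it passed through its old libraries. The lack of overlap there follows largely from that. The strongest peak and its neighbour also passed mainly through their old libraries, with young counts of at most 16 and 14. The call of the third was lost with DESeq2's test, and without old replicate 1 or young replicate 3. It was also lost at an adjusted p below 0.01 and with a minimum fold of 1.5.

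A further peak in that part of the window, chr11:118453387-118453832, did not pass the count filter and was singled out after its values were seen. Without the filter it was called higher in old, as it was with old replicate 3 or any 1 young replicate left out. Here too the filter was looser with a library left out and the peak passed through its old libraries, so these calls add no separate support. It had 3.56, 3.16, 1.61 and 2.48 CPM in the old libraries. Among the young libraries replicate 2 had 0.210 CPM, which is 1 count, and the others 0. The ratio of summed counts, 48 in old and 1 in young, was 47.5 (95% exact binomial interval 8.13 to 1916).

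The strongest Rbfox3 peak was not called. At chr11:118609840-118610538, 161 kb downstream of the start-site peak, the old libraries had 47.1, 45.4, 43.4 and 37.0 CPM, against 33.8, 30.9, 44.0 and 49.1 CPM in the young ones. The groups overlapped, and the log2 fold change was 0.13 ± 0.13 (SE). It ranked 5480th in strength among all tested peaks.

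A peak about 6 kb from it fell in old HSCs and was the called member nearest to the call threshold. At chr11:118615763-118616345 the old libraries had 4.58, 5.26, 4.61 and 5.58 CPM, against 6.30, 5.26, 12 and 12.5 CPM in the young ones. Young replicates 3 and 4 were high there, and young replicate 2 lay within the old range. The log2 fold change was -0.83 ± 0.27 (SE). The call was lost with DESeq2's test, with limma voom and with 5 of the 8 libraries left out in turn.

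The other 6 tested Rbfox3 peaks that were not called had log2 fold changes from -0.15 to 0.57, and the groups overlapped at each. The 18 untested Rbfox3 peaks averaged 0.260 to 2.70 CPM in old HSCs and 0.0526 to 2.13 CPM in young HSCs. In RefSeq's order of genes, Engase lies next to the downstream end of Rbfox3 and a long noncoding RNA gene, Gm11750, overlaps Rbfox3. Without an mm9 annotation a peak near the downstream edge of the window cannot be assigned to Rbfox3 rather than to Engase, and exons and introns were not analysed here.

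**Figure D3:**
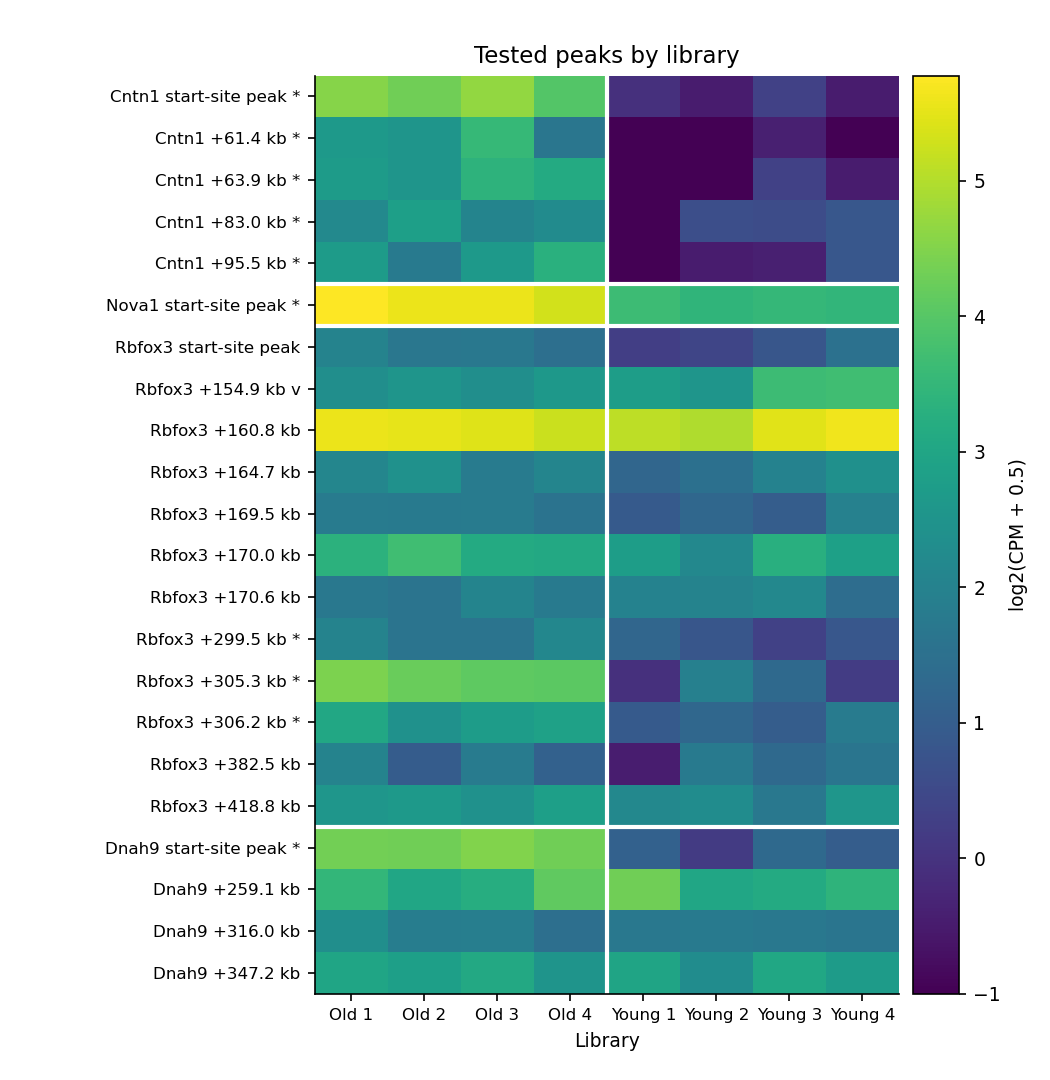
log2(CPM + 0.5) of the 22 tested members (rows, named by gene and distance downstream of the start-site peak in kb) in the 4 old and 4 young libraries (columns). A star marks peaks called higher and v the one called lower in old HSCs. The 5 Cntn1 peaks, the Dnah9 start-site peak and the Rbfox3 peak 299.5 kb downstream are dark in every young library, whereas the strongest Rbfox3 peak is bright in all 8.

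Summed over all its peaks, each window was more accessible in every old than in every young library. The Cntn1 window held 47.6 ± 8.5 CPM in old HSCs and 4.34 ± 2.35 CPM in young HSCs (SD over 4 libraries each, here and below). The Nova1 window held 49.5 ± 6.53 CPM in old HSCs and 11 ± 0.594 CPM in young HSCs. The Dnah9 window held 43 ± 3.16 CPM in old HSCs and 23.1 ± 7.39 CPM in young HSCs, and the Rbfox3 window 129 ± 9.39 CPM in old HSCs and 91.1 ± 18.4 CPM in young HSCs. The log2 ratios were 3.63 ± 0.47 at Cntn1, 2.16 ± 0.11 at Nova1, 0.94 ± 0.22 at Dnah9 and 0.52 ± 0.15 at Rbfox3 (SE).

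The split by end of the locus showed where each difference lay. At Dnah9 the start-site end had 20.1 ± 1.38 CPM in old HSCs and 1.44 ± 0.580 CPM in young HSCs, and the gene body 22.9 ± 2.85 CPM in old HSCs and 21.7 ± 7.11 CPM in young HSCs. At Cntn1 both ends differed: the start-site end had 20.6 ± 4.31 CPM in old HSCs and 0.411 ± 0.256 CPM in young HSCs, and the gene body 27 ± 5.17 CPM in old HSCs and 3.92 ± 2.46 CPM in young HSCs. At Rbfox3 the start-site end had 3.92 ± 0.835 CPM in old HSCs and 1.62 ± 0.871 CPM in young HSCs, a log2 ratio of 1.41 ± 0.44 (SE), and the gene body 125 ± 8.89 CPM in old HSCs and 89.4 ± 17.7 CPM in young HSCs, a log2 ratio of 0.50 ± 0.15. The groups did not overlap at either end, though narrowly at the start-site end, where the lowest old library had 2.89 CPM and the highest young one 2.80. That end held 3.04% of the window's CPM in old and 1.78% in young libraries. Without its 3 called gains, the Rbfox3 window had 101 ± 6.93 CPM in old HSCs and 86.2 ± 18.5 CPM in young HSCs, and the groups overlapped. Those 3 peaks were picked by the same contrast, so leaving them out had to narrow the gap.

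**Figure D4:**
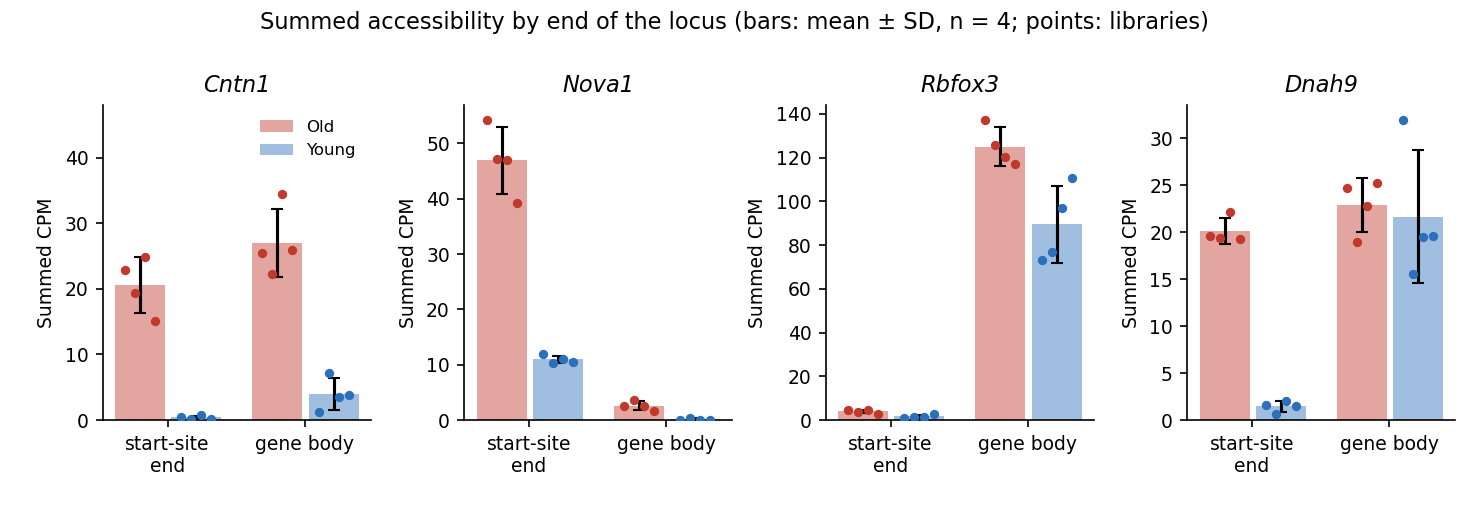
CPM summed over the member peaks of the start-site end and of the gene body of each gene, in old and young libraries (bars: mean ± SD, n = 4; points: libraries; each panel has its own scale from 0). At Dnah9 the groups differ at the start-site end and overlap in the gene body; at Cntn1 old libraries lie above young ones at both.

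Width and neighbouring peaks were not used to choose the genes. The start-site peaks of Nova1, Cntn1 and Dnah9 were wide, at 1761, 1148 and 1014 bases, against a median of 621 bases over tested peaks. The Rbfox3 start-site peak had 716 bases. The median over all 46 members was 332.5, but 24 of these were too low to test, so it is not like for like with the 621. Peaks of like strength were not compared. The start-site peaks of Cntn1, Nova1 and Dnah9 also had few neighbours: 7, 2 and 1 other peaks lay within 250000 bases, against 42 at that of Rbfox3 and 13 or 14 at the gene-body peaks of Dnah9.

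At the members called higher, old replicate 4 was near the other old libraries. Over the 10 members called higher it sat at 0.94 on the same scale, where old replicates 1 to 3 took places from 0.93 to 1.08 and young replicates from -0.12 to 0.14. Over all peaks called higher its place was 0.72, as given above. Peaks with a larger group difference weigh more in a place. Of the 10 members 8 had a fold above 4, against 694 of all 73164 tested peaks. Peaks of like fold were not placed, and the difference between these places was not tested.

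The flanks of the windows were not used to choose the genes. Within 250000 bases outside the 4 windows, 58 peaks were tested, of which 3 were called higher and 6 lower in old HSCs. These are 5.17% and 10.3% of them, against 10.0% and 10.4% of all tested peaks. At Dnah9 0 of 7 flanking peaks were called by edgeR, DESeq2 or limma voom, and 0 had an unadjusted p below 0.05 in edgeR. Within 500000 bases 9 were tested there, of which edgeR called 2 higher and 0 lower. At Nova1 none passed the count filter. The median log2 fold change of the tested flanking peaks was -0.08. The number called lower was 3 without old replicate 1, 2 or 3 or young replicate 1 or 4, and the number called higher was 5 without old replicate 4.

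Most flanking peaks, 50 of 58, lay beside Rbfox3, where 2 were called higher and 6 lower. The 2 with the smallest p both fell. At chr11:118867134-118867586 the old libraries had 3.82, 2.52, 2.77 and 7.44 CPM, against 7.93, 13, 9.50 and 10.1 CPM in the young ones (log2 fold change -1.28 ± 0.28 SE, edgeR adjusted p = 0.00357). Old replicate 4 was the highest old library there. At chr11:118853957-118854491 the means were 1.72 ± 0.567 CPM in old HSCs and 4.59 ± 1.36 CPM in young HSCs (log2 fold change -1.38, edgeR adjusted p = 0.00622).

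Beside Cntn1 the single tested flanking peak, chr15:92227140-92227995, rose in old HSCs. It had 6.87, 2.95, 6.69 and 2.48 CPM in the old libraries, against 0.466, 3.16, 1.0 and 0.862 CPM in the young ones (log2 fold change 1.71 ± 0.49 SE, edgeR adjusted p = 0.0216). Old replicates 2 and 4 lay below young replicate 2, so the groups overlapped. Pdzrn4 is the next protein-coding gene downstream of Cntn1 in RefSeq's order, and the peak cannot be assigned to either gene here.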

How the data were processed

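The deposited table gives raw, unscaled read counts as whole numbers, for a shared set of peaks counted in all 8 libraries. A library can have no count at a peak of the set. The submitters' processing notes name Trim Galore and FastQC, Bowtie2, SAMtools with Picard, MACS2 and mm9, used by the authors. Versions, the merging of peaks, the counting program and any shift of read ends for the transposase: not given in the sources used here. Because peaks were drawn from the libraries being compared, the set can favour peaks open in either group.

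Members, windows and motifs were chosen with earlier results of these data known. From the deposited counts, CPM was calculated with TMM factors. The filter was filterByExpr by group, with edgeR's defaults (a count of 10, a total of 15), and kept 73164 peaks with 94.2% of the counts. The main comparison used glmQLFit (robust) and glmQLFTest of edgeR 4.0.16 in R 4.3.3, without covariates. The SE of a log2 fold change is its size divided by the square root of F. For window sums it comes from log2 CPM per library. The places of libraries used log2 CPM with a prior count of 2. The script was tested on simulated data with known fold changes.

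Peaks given with values were, per gene, the start-site peak, up to 6 other called peaks by mean CPM, the strongest peak not called, and the members nearest to the call threshold; in flanks, up to 2 called peaks by p. Peaks given outside this rule are named as such. Every pair of libraries differed by more than sampling noise (lowest chi-square per peak 1.18). Alternatives used DESeq2 1.42.0 and limma 3.58.1.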

Additional observations from a re-analysis of the deposited data

Results flagged for a closer look

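A library set well apart from its own group was looked for in 60 groups of 4 values, and 3 were found. Chance alone flags about 1 in 20 such groups, which is also 3 here. At the Dnah9 start-site peak, old replicate 3 had 22.1 CPM, against 19.2 to 19.6 in the other old libraries. In the summed CPM of the Dnah9 window, old replicate 2 had 38.3, against 44.3 to 45 in the other old libraries. At the Cntn1 peak chr15:91943159-91943562, young replicate 3 had 0.25 CPM, which is 1 count, where the other young libraries had 0.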

How the results depend on the processing

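The start-site peaks of Cntn1, Nova1 and Dnah9 stayed called and higher in old under every alternative in which they were tested. With each library left out in turn their log2 fold changes were 5.38 to 6.00, 2.04 to 2.18 and 3.53 to 3.98. That of Rbfox3 was 0.90 to 1.58 and passed the threshold without old replicate 4 (1.20) and without young replicate 4 (1.58). Members called higher numbered 9 to 13 with a library left out. The count filter then asked for counts in fewer libraries and 22 to 25 members were tested, so some gains were peaks newly let in. Members called lower numbered 0 or 1 with a library left out, and 0 with DESeq2's test, limma voom, an adjusted p below 0.01 or a minimum fold of 1.5. With a mean count of at least 50, 2 members were tested, of which 1 was called higher and 0 lower.

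Over all peaks, 7352 were called higher and 7634 lower. With the mean count of at least 50 these were 2377 and 2800, at an adjusted p below 0.01 3694 and 3678, and with a minimum fold of 1.5 1685 and 1510. With a library left out they were 5184 to 10997 and 5199 to 11802, highest without old replicate 4. Flanking peaks called higher were 2 to 5 and lower 3 to 7 with a library left out, and 8 and 15 within 500000 bases. Start-site ends of 40000 or 75000 bases left the counts per end as they were, and the summed log2 ratios of the windows kept their direction under both other scalings and with each library left out.

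Same-numbered old and young libraries did not deviate together throughout (r of -0.01, 0.07, 0.05 and 0.18). Libraries of different numbers had r from -0.13 to 0.08, and the r of old and young replicate 4 was the highest of all pairs. Such weak r cannot settle whether the numbers pair the libraries. With the replicate block, 10 members were called higher and 1 lower, and over all peaks 8111 and 8647. In the main comparison 24 members were too low to test. Without the count filter all 46 members were tested, and 13 were called higher and 1 lower. Over all 126871 peaks, 10733 were then called higher and 9753 lower. The members gained were chr12:47783560-47783929 at Nova1, and chr11:118453387-118453832 and chr11:118529727-118530055 at Rbfox3.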
